A study of Homo sapiens with 24 samples.

Results

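The genes described here are 10 small nucleolar RNA host genes, GAS5, SNHG1, SNHG5, SNHG6, SNHG7, SNHG8, SNHG12, SNHG15, SNHG16 and ZFAS1. They were taken by gene symbol from the 23595 genes of the deposited expression tables, and all 10 were present and passed the filter on low values in both cell lines. Expression had been measured by RNA-seq of polyadenylated RNA in 2 acute myeloid leukaemia lines, U937 and IMS-M2, to ask whether withdrawal of folic acid alters the response to OTX. Each line was cultured without folic acid (-FA) or with it (+FA), and each culture condition was treated with OTX or with the vehicle DMSO. The 8 groups were thus U937 -FA OTX, U937 -FA DMSO, U937 +FA OTX, U937 +FA DMSO, IMS-M2 -FA OTX, IMS-M2 -FA DMSO, IMS-M2 +FA OTX and IMS-M2 +FA DMSO, with 3 libraries each. OTX is a name in use for birabresib, which blocks the bromodomains of BET proteins. The labels give the name alone, without a dose, a treatment time or the duration of folic acid withdrawal. Both are established lines, and each stands for a single donor.

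Small nucleolar RNAs (snoRNAs) pair with ribosomal and spliceosomal RNA and direct its modification. Box C/D snoRNAs guide ribose methylation, and box H/ACA snoRNAs guide the conversion of uridine to pseudouridine. In vertebrates most of them are cut from the introns of host transcripts. The genes described here are hosts whose spliced exons form long noncoding RNAs. Many such hosts begin with a terminal oligopyrimidine (TOP) tract, a C followed by an unbroken run of pyrimidines, which they share with the mRNAs of ribosomal proteins. Several of their spliced RNAs, GAS5 among them, are known to be degraded by nonsense-mediated decay while ribosomes translate them. The files measure the spliced, polyadenylated host RNA and not the amount of mature snoRNA.

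Values are FPKM, a level per kilobase of transcript and scaled for the number of fragments, so that levels of different genes can be set side by side. The FPKM of all genes summed to between 522659 and 644841 per library, and 10418 to 10894 genes per library reached 1 FPKM. MYC, a known target of BET inhibitors, was lower under OTX in all 4 line and folic acid conditions, with log2 differences between -3.08 and -0.47, and HEXIM1, which BET inhibitors are known to raise, was higher by 1.24 to 2.31. Of 10 myeloid markers, 9 in U937 and 7 in IMS-M2 reached a group mean of 1 FPKM. Of 14 markers of T, B, erythroid, epithelial and stromal cells, 2 did so in U937 and 3 in IMS-M2, while EPCAM, KRT19 and MS4A1 were listed at 0 in every group. Correlations of log2 values between libraries of a group lay between 0.972 and 0.993.

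Promoter sequences from RefSeq (GRCh38.p14) were matched for 8 of the 10 genes. The stretch from 40 bases before to 30 bases after the annotated start is shown for the genes on which the results turn. SNHG16 and SNHG7 were lower under OTX in every condition, GAS5 varied most between libraries, SNHG5 and SNHG12 were higher under OTX in IMS-M2 +FA, and ZFAS1 was called in no comparison. Capitals mark a TATA-like motif and a TOP tract, searched as a C followed by at least 4 C or T and starting within 5 bases of the annotated start.
SNHG16: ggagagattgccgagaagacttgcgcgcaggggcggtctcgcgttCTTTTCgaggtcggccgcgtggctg
SNHG7: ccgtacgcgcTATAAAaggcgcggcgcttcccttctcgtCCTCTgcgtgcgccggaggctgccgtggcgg
SNHG5: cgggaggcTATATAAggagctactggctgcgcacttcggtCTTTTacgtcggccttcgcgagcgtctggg
SNHG12: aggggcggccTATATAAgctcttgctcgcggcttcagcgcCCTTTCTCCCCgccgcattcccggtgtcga
ZFAS1: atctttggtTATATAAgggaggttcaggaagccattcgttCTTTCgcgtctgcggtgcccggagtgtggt
GAS5: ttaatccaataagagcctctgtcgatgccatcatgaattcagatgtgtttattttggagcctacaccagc
These stretches lie at chr17:76557724-76557793 on the plus strand for SNHG16, chr9:136728155-136728224 on the minus strand for SNHG7 and chr6:85678704-85678773 on the minus strand for SNHG5. They lie at chr1:28581844-28581913 on the minus strand for SNHG12, chr20:49278602-49278671 on the plus strand for ZFAS1 and chr1:173869016-173869085 on the minus strand for GAS5.

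A TOP tract was found at the start of 6 of the 8 matched genes, SNHG5, SNHG7, SNHG8, SNHG12, SNHG16 and ZFAS1, and at 21.1% of the 35116 promoters in the RefSeq table. For GAS5 and SNHG1 no tract started within 5 bases of the annotated start, the only stretch searched. Runs of that form do lie further before the start in both windows, so a tract at another start is not excluded. Whether the annotated start of a window is the one used in these cells was not tested. The TATATAA motif, searched on both strands after the windows had been seen, was present in the RefSeq promoters of SNHG5, SNHG12 and ZFAS1 and in 2.57% of all promoters. TATAAA was present on the transcribed strand of SNHG7, 30 bases before the start, and on the opposite strand of SNHG1, 39 bases after it. It occurred in 11.5% of all promoters. CACGTG, the sequence bound by MYC and related factors, was found in the promoter of SNHG7 alone, 122 bases before the start, and in 7.26% of all promoters. CCGGAAG, bound by ETS factors, was in none of the 8 and in 10.3% of all promoters. A match of letters is a description and not a bound site.

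Across the 8 groups, mean levels ran from 14.9 FPKM for SNHG16 in U937 -FA OTX to 513 FPKM for GAS5 in IMS-M2 +FA DMSO. All 10 RNAs together summed to 836 ± 22.0 FPKM in U937 -FA OTX against 1441 ± 307 FPKM in U937 -FA DMSO, and to 983 ± 70.9 FPKM in U937 +FA OTX against 1427 ± 54.7 FPKM in U937 +FA DMSO (mean ± SD, n = 3 each). The IMS-M2 sums were 1366 ± 40.7 FPKM in -FA OTX against 1463 ± 149 FPKM in -FA DMSO, and 1221 ± 11.2 FPKM in +FA OTX against 1701 ± 303 FPKM in +FA DMSO. The -FA sums of IMS-M2 overlapped between OTX and DMSO libraries (1319 to 1396 FPKM under OTX, 1328 to 1624 FPKM under DMSO), and those of the other 3 conditions did not. FPKM is scaled to each library, so a lower sum is lower relative to the other RNAs measured. Whether each cell held less of these RNAs, or fewer cells held them, cannot be told from it. Leaving GAS5 out, the sums were 740 ± 29.2 and 1074 ± 69.9 FPKM in U937 -FA OTX and DMSO, and 985 ± 22.8 and 1103 ± 124 FPKM in IMS-M2 -FA OTX and DMSO.

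**Figure D1:**
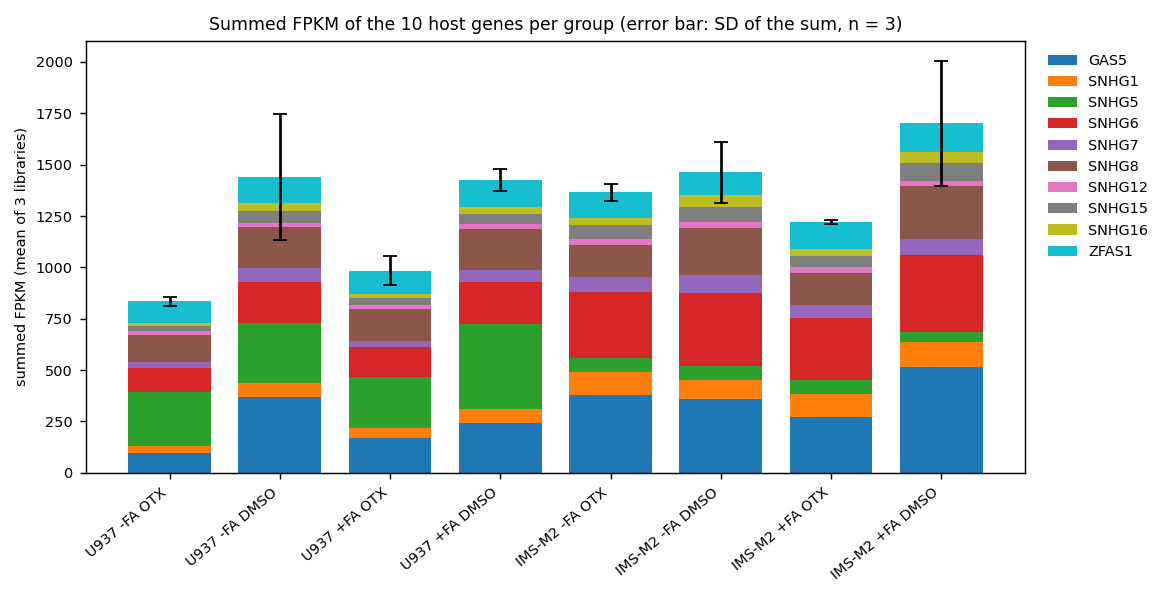
Summed FPKM of the 10 host genes in each group, stacked by gene (mean of 3 libraries; the error bar is the SD of the sum). The sum is lower under OTX than under DMSO in both lines and both folic acid conditions, with the narrowest gap in IMS-M2 -FA (1366 against 1463 FPKM), and SNHG5 takes a large part of the sum in U937 only.

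The lines differed in which host RNA led. SNHG5, host of SNORD50A and SNORD50B, lay between 202 and 439 FPKM in the 12 U937 libraries and between 41.5 and 78.2 FPKM in the 12 IMS-M2 libraries, with no overlap. Its mean was 7.95 times higher in U937 than in IMS-M2 in +FA DMSO cells and 4.22 times higher in -FA DMSO cells. It made up 20.3 to 31.2% of the summed level in U937 groups and 3.04 to 5.49% in IMS-M2 groups. SNHG5 led the order in 3 of the 4 U937 groups, and GAS5 led in U937 -FA DMSO, where the libraries of GAS5 and SNHG5 overlapped. In IMS-M2, GAS5 and SNHG6 held the top places in every group, and their libraries overlapped in all groups but -FA OTX, where GAS5 was higher.

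Other hosts were mostly lower in U937, except in -FA DMSO cells. Under OTX, 8 of the 10 genes were lower in U937 without overlap at -FA, beside 41.1% of 12197 genes, and 8 at +FA, beside 39.2%. Under DMSO, 7 were lower without overlap at +FA, beside 35.9% of all genes, but only 4 at -FA, beside 36.4%, where 5 overlapped. SNHG5 was the only host higher in U937 without overlap, in each of the 4 comparisons. The share of all genes higher in U937 without overlap was not computed. SNHG6, host of SNORD87, averaged 208 ± 13.3 FPKM in U937 and 370 ± 50.5 FPKM in IMS-M2 in +FA DMSO cells. SNHG12 held rank 9 or 10 of the 10 in every group and ranged from 18.001 to 22.1 FPKM in U937 and from 24.3 to 32.9 FPKM in IMS-M2. The tables of the lines were deposited separately, and whether they share a normalization is not stated, so these levels were not tested between lines.

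**Figure D2:**
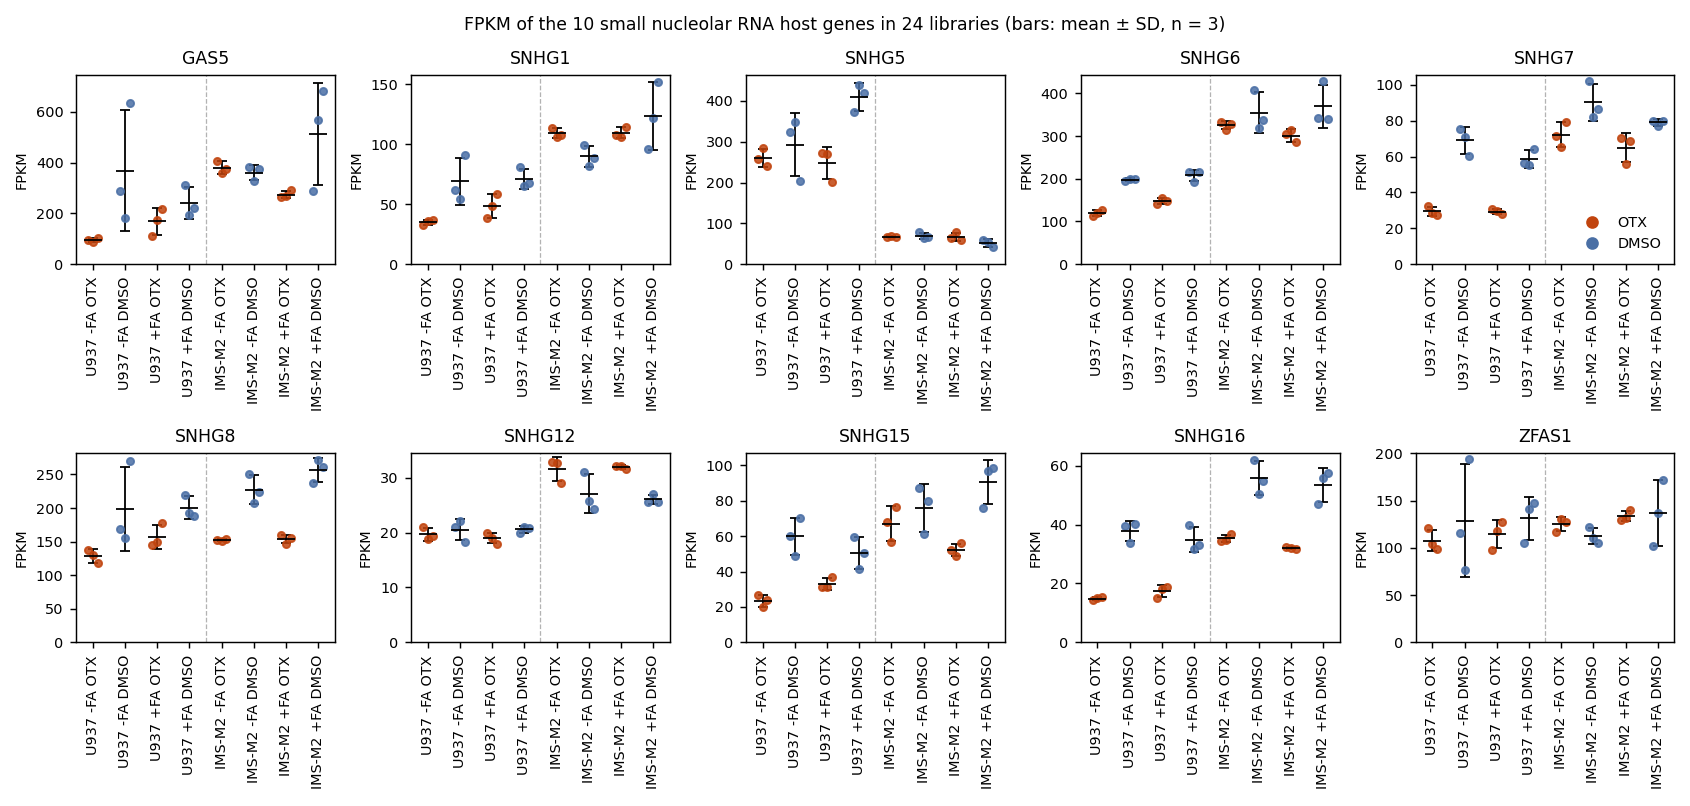
FPKM of each host gene in the 24 libraries (points), with the group mean and SD (n = 3), OTX in rust red and DMSO in blue, U937 left of the dashed line and IMS-M2 right of it. SNHG16 and SNHG7 show OTX points below all DMSO points of the same condition, SNHG5 is high in U937 alone, and GAS5 has widely spread DMSO points in U937 -FA and IMS-M2 +FA.

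Of the 40 differences between OTX and DMSO, 10 genes in 4 conditions, 22 passed the test as lower under OTX, 2 as higher and 16 did not pass. With limma on log2(FPKM + 1) and a Benjamini-Hochberg adjusted p below 0.05, 7 of the 10 were lower in U937 -FA, where 59.8% of the 11194 genes tested were called and 31.7% were called lower. In U937 +FA 6 of the 10 were lower, beside 56.1% of all genes called, 27.0% lower and 29.1% higher. In IMS-M2 -FA 3 were lower, SNHG7, SNHG8 and SNHG16, beside 57.5% of 11223 genes called and 30.0% called lower. In IMS-M2 +FA 6 were lower and 2 higher, beside 63.2% called, 33.4% lower and 29.8% higher. The median log2 difference of the 10 genes was -0.82 in U937 -FA, -0.54 in U937 +FA, -0.07 in IMS-M2 -FA and -0.29 in IMS-M2 +FA, while the median of all tested genes lay between -0.03 and 0.03. A majority of all tested genes was called in every condition, so that a host being called at all is near the background, and in IMS-M2 -FA fewer hosts were called than the background share. Hosts called lower were above the background share in both U937 conditions and in IMS-M2 +FA, and at it in IMS-M2 -FA.

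**Figure D3:**
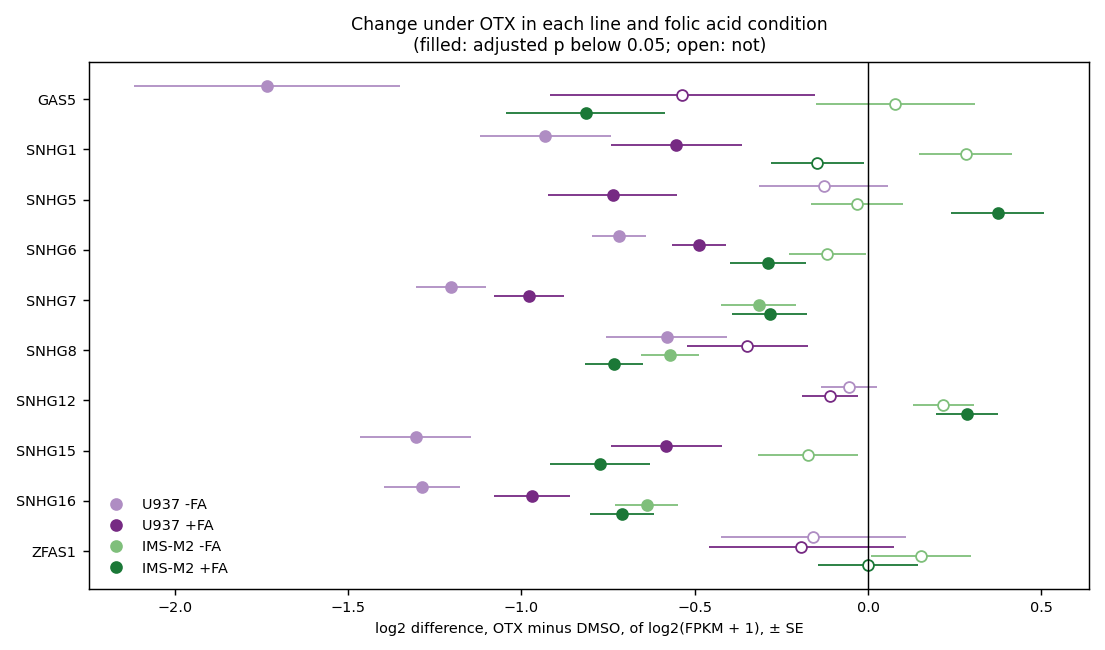
Log2 difference of each host gene, OTX minus DMSO, with its SE from limma, in U937 -FA, U937 +FA, IMS-M2 -FA and IMS-M2 +FA; filled points passed an adjusted p below 0.05. SNHG7 and SNHG16 are filled and below 0 in all 4 conditions, ZFAS1 is open in all 4, and SNHG5 and SNHG12 are filled above 0 in IMS-M2 +FA.

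SNHG16, host of SNORD1A, SNORD1B and SNORD1C, was lower in all 4 conditions. In U937 -FA it measured 14.2, 15.001 and 15.4 FPKM under OTX against 39.6, 33.8 and 40.1 FPKM under DMSO. U937 +FA cells had 15.02, 18.2 and 18.7 FPKM under OTX against 39.8, 31.7 and 33.1 FPKM under DMSO. In every condition all OTX libraries lay below all DMSO libraries. The IMS-M2 values were 34.5, 34.6 and 36.7 FPKM under OTX against 61.9, 50.4 and 54.7 FPKM under DMSO at -FA, and 32.5, 32.1 and 31.9 FPKM under OTX against 46.9, 55.9 and 57.4 FPKM under DMSO at +FA. The log2 difference of SNHG16 was -1.29 ± 0.11 (SE) in U937 -FA (limma adjusted p = 2.28e-06) and -0.97 ± 0.11 in U937 +FA (limma adjusted p = 2.08e-05). In IMS-M2 it was -0.64 ± 0.09 at -FA (limma adjusted p = 6.99e-05) and -0.71 ± 0.09 at +FA (limma adjusted p = 2.47e-05). Of all genes tested in U937 -FA, 3.1% had a lower log2 difference.

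SNHG7, which carries the box H/ACA snoRNAs SNORA17 and SNORA43 and the CACGTG motif named above, was the other host lower in every condition. It measured 32.4, 28.4 and 27.3 FPKM under OTX against 75.5, 71.2 and 60.6 FPKM under DMSO in U937 -FA, and 30.5, 29.4 and 27.8 FPKM under OTX against 56.5, 55.3 and 64.2 FPKM under DMSO in U937 +FA. In U937 all OTX libraries lay below all DMSO libraries, whatever the folic acid condition. IMS-M2 had 71.5, 65.6 and 79.5 FPKM under OTX against 102, 82.2 and 86.4 FPKM under DMSO at -FA. With folic acid it had 70.3, 56.0 and 68.9 FPKM under OTX against 80.1, 77.0 and 80.0 FPKM under DMSO. Its log2 difference was -1.20 ± 0.10 (SE) in U937 -FA (limma adjusted p = 2.04e-06) and -0.98 ± 0.10 in U937 +FA (limma adjusted p = 1.07e-05). In IMS-M2 it was -0.32 ± 0.11 at -FA (limma adjusted p = 0.0242) and -0.28 ± 0.11 at +FA (limma adjusted p = 0.0356), and the groups did not overlap. The -FA call ended without OTX replicate 1 (limma adjusted p = 0.0617), OTX replicate 2 (0.0957) or DMSO replicate 1 (0.114). The +FA call ended with the 6 libraries of that table fitted alone (limma adjusted p = 0.0533) and without OTX replicate 2 (log2 difference -0.18, 0.160) or any 1 of the DMSO replicates (0.0561 to 0.0746). The tables give SNHG7 the locus chr9:139607023-139622636 (hg19), which also holds FAM69B. FAM69B was at 1.40 ± 0.28 FPKM under OTX against 6.002 ± 0.41 FPKM under DMSO in U937 -FA (SD, n = 3 each). Libraries were made with a stranded kit, but whether strand was used in counting is not given in the sources used here, so a share of such reads in SNHG7 was not tested.

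SNHG15, host of SNORA9, was lower in 3 conditions. It measured 26.6, 20.1 and 23.8 FPKM under OTX against 60.1, 49.0 and 70.3 FPKM under DMSO in U937 -FA, and 31.0, 31.3 and 37.2 FPKM under OTX against 59.5, 41.4 and 50.6 FPKM under DMSO in U937 +FA. IMS-M2 +FA had 52.0, 48.8 and 55.9 FPKM under OTX against 76.1, 97.0 and 98.3 FPKM under DMSO. The OTX and DMSO libraries were apart in these 3 conditions and overlapped in IMS-M2 -FA, where SNHG15 had 68.1, 56.9 and 76.4 FPKM under OTX against 87.1, 61.1 and 79.9 FPKM under DMSO. The log2 difference was -1.31 ± 0.16 (SE) in U937 -FA (limma adjusted p = 3.36e-05), -0.58 ± 0.16 in U937 +FA (limma adjusted p = 0.00866), -0.17 ± 0.15 in IMS-M2 -FA (limma adjusted p = 0.326) and -0.77 ± 0.15 in IMS-M2 +FA (limma adjusted p = 0.00052).

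SNHG8, host of SNORA24, was lower in 3 conditions, with close replicates in IMS-M2. Its levels there were 152, 151 and 154 FPKM under OTX against 251, 208 and 223 FPKM under DMSO at -FA, and 160, 147 and 155 FPKM under OTX against 238, 272 and 261 FPKM under DMSO at +FA. The OTX libraries lay close together and apart from every DMSO library. The log2 difference of SNHG8 was -0.57 ± 0.08 (SE) at -FA (limma adjusted p = 8.65e-05) and -0.73 ± 0.08 at +FA (limma adjusted p = 8.71e-06). U937 -FA had 138, 130 and 118 FPKM under OTX against 169, 156 and 270 FPKM under DMSO. That log2 difference was -0.58 ± 0.18 (limma adjusted p = 0.0137). It was -0.34 without the highest DMSO library, column 2 (limma adjusted p = 0.0234), and the call was lost without OTX column 2 (limma adjusted p = 0.0509). In U937 +FA SNHG8 did not pass the test, at 145, 149 and 178 FPKM under OTX against 220, 192 and 188 FPKM under DMSO (log2 difference -0.35 ± 0.18, limma adjusted p = 0.111). The groups did not overlap there, and it passed with the 6 libraries of that table fitted alone (limma adjusted p = 0.0302).

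SNHG6 and SNHG1 host box C/D snoRNAs and fell in U937. SNHG6 measured 113, 121 and 127 FPKM under OTX against 194, 199 and 200.3 FPKM under DMSO in U937 -FA, and 141, 155 and 148 FPKM under OTX against 216, 192 and 215 FPKM under DMSO in U937 +FA. No OTX library reached a DMSO library. Its log2 difference was -0.72 ± 0.08 (SE) in U937 -FA (limma adjusted p = 1.34e-05) and -0.49 ± 0.08 in U937 +FA (limma adjusted p = 0.000256). IMS-M2 +FA had 304, 315 and 286 FPKM of SNHG6 under OTX against 341, 429 and 341 FPKM under DMSO, without overlap. In IMS-M2 the log2 difference of SNHG6 was -0.12 ± 0.11 at -FA (limma adjusted p = 0.380) and -0.29 ± 0.11 at +FA (limma adjusted p = 0.0364). That last call ended without the filter on low values (limma adjusted p = 0.0536), with the 6 libraries of the table fitted alone (limma adjusted p = 0.0659) and without OTX replicate 1 (0.0724), OTX replicate 3 (0.112) or DMSO replicate 2 (log2 difference -0.18, 0.166).

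SNHG1, host of SNORD22 and of SNORD25 to SNORD31, measured 32.4, 35.9 and 36.4 FPKM under OTX against 62.0, 54.1 and 91.0 FPKM under DMSO in U937 -FA. U937 +FA had 38.4, 48.7 and 58.5 FPKM under OTX against 80.8, 64.7 and 67.4 FPKM under DMSO. The groups were apart in both. The log2 difference of SNHG1 was -0.93 ± 0.19 (SE) at -FA (limma adjusted p = 0.00125) and -0.55 ± 0.19 at +FA (limma adjusted p = 0.0258). The call at +FA ended without OTX replicate 1 (limma adjusted p = 0.102), OTX replicate 2 (0.0553) or DMSO replicate 1 (0.0871). In IMS-M2 -FA, SNHG1 measured 114, 106 and 108 FPKM under OTX against 99.2, 81.5 and 88.8 FPKM under DMSO, with OTX above DMSO in all libraries and a log2 difference of 0.28 ± 0.13 that did not pass the test (limma adjusted p = 0.0912). It passed with the 6 libraries of that table fitted alone (limma adjusted p = 0.0136). At +FA the log2 difference of SNHG1 was -0.15 ± 0.13 (limma adjusted p = 0.359), and it was -0.32 without DMSO replicate 1 (limma adjusted p = 0.0168).

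GAS5, named for its accumulation in growth-arrested cells and host of 10 box C/D snoRNAs listed in the tables, had the lowest log2 difference of the 10 genes and the largest spread. In U937 -FA it measured 95.6, 87.4 and 105 FPKM under OTX against 287, 180 and 635 FPKM under DMSO. All OTX libraries lay below all DMSO libraries, and the DMSO libraries spanned 3.52 times from the lowest to the highest. The log2 difference of GAS5 was -1.73 ± 0.38 (SE; limma adjusted p = 0.00222), and -1.24 without the highest DMSO library, column 2 (limma adjusted p = 0.00283). IMS-M2 +FA had 263, 268 and 291 FPKM under OTX against 289, 568 and 682 FPKM under DMSO. The highest OTX library there passed the lowest DMSO library, and the log2 difference was -0.81 ± 0.23 (limma adjusted p = 0.00773). It was -1.18 without DMSO replicate 1 and -0.56 without DMSO replicate 3. GAS5 in U937 +FA had 112, 176 and 218 FPKM under OTX against 311, 193 and 219 FPKM under DMSO, with overlap (log2 difference -0.54 ± 0.38, limma adjusted p = 0.252). IMS-M2 -FA had 407, 358 and 375 FPKM under OTX against 382, 326 and 373 FPKM under DMSO, also with overlap (log2 difference 0.08 ± 0.23, limma adjusted p = 0.789).

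The pooled SD of GAS5 within groups was 0.46 on the log2 scale, larger than that of 99.1% of 6276 genes averaging 10 FPKM or more, whose median SD was 0.13. ZFAS1 had an SD of 0.30, larger than 96.3% of these genes, and SNHG12 had 0.10, larger than 19.1%. The spread was shared by some of the hosts. In all 8 groups SNHG1 was highest in the library in which GAS5 was highest, and in 7 of the 8 groups SNHG5 was lowest in that library. SNHG15 and SNHG16 were highest in it in 6 of the 8 groups, SNHG6 and ZFAS1 in 5, SNHG8 in 4, SNHG12 in 2 and SNHG7 in 1. Of 12197 tested genes, 0.369% were highest in that library in all 8 groups, 12.2% in at least 6, and 2.12% were lowest in it in at least 7. In every DMSO group that library also had the highest FPKM sum over all genes, from 583300 (IMS-M2 -FA) to 644841 (U937 -FA). Under OTX this held in IMS-M2 +FA alone. What separated these libraries, and its part in the differences of GAS5 and SNHG1, was not tested.

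SNHG5 and SNHG12 were the 2 hosts called higher in any condition, both in IMS-M2 +FA. SNHG5 in U937 +FA measured 271, 269 and 202 FPKM under OTX against 373, 439 and 420 FPKM under DMSO, without overlap (log2 difference -0.74 ± 0.19 (SE), limma adjusted p = 0.00536). In U937 -FA it had 258, 285 and 241 FPKM under OTX against 324, 349 and 204 FPKM under DMSO, and the groups overlapped through DMSO column 2 (log2 difference -0.13 ± 0.19, limma adjusted p = 0.570). Without that library the log2 difference was -0.37 (limma adjusted p = 0.0362), and without DMSO column 1 it was 0.02. In IMS-M2 +FA, SNHG5 was higher under OTX, at 64.1, 78.2 and 58.8 FPKM against 59.3, 54.2 and 41.5 FPKM under DMSO (log2 difference 0.37 ± 0.13, limma adjusted p = 0.0269). The groups overlapped there, and the call ended without OTX replicate 2 (limma adjusted p = 0.121), without DMSO replicate 3 (0.123) and with the table fitted alone (0.0701). IMS-M2 -FA showed 65.9, 69.5 and 67.5 FPKM under OTX against 77.9, 64.7 and 65.4 FPKM under DMSO (log2 difference -0.03 ± 0.13, limma adjusted p = 0.856).

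SNHG12, host of 3 H/ACA snoRNAs and SNORD99, was lower in none of the 4 conditions. In IMS-M2 +FA it measured 32.2, 32.1 and 31.5 FPKM under OTX against 25.5, 27.0 and 25.6 FPKM under DMSO, without overlap, and it was higher by 0.28 ± 0.09 (SE) on the log2 scale (limma adjusted p = 0.014). IMS-M2 -FA had 32.9, 32.7 and 28.97 FPKM under OTX against 31.1, 25.8 and 24.3 FPKM under DMSO (log2 difference 0.22 ± 0.09, limma adjusted p = 0.0525), and it passed without OTX replicate 3 (limma adjusted p = 0.0335) or DMSO replicate 1 (0.00558). In U937 the log2 difference was -0.05 ± 0.08 at -FA (limma adjusted p = 0.586) and -0.11 ± 0.08 at +FA (limma adjusted p = 0.266). Its locus in the tables, chr1:28879528-28908366 (hg19), also holds TRNAU1AP, whose group means lay between 11.0 and 22.2 FPKM.

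ZFAS1, transcribed from the antisense strand at the start of ZNFX1 and host of SNORD12, SNORD12B and SNORD12C, was called in no condition. It measured 121, 104 and 98.7 FPKM under OTX against 116, 76.2 and 194 FPKM under DMSO in U937 -FA, and 98.1, 117 and 127 FPKM under OTX against 106, 141 and 148 FPKM under DMSO in U937 +FA. The IMS-M2 values were 117, 130 and 128 FPKM under OTX against 122, 110 and 105 FPKM under DMSO at -FA, and 129, 132 and 140 FPKM under OTX against 102, 137 and 171 FPKM under DMSO at +FA. Groups overlapped in all 4 conditions. The log2 differences lay between -0.19 ± 0.27 and 0.15 ± 0.14 (SE), and the limma adjusted p-values between 0.384 and 0.995. ZNFX1, which the tables place in the same locus, had group means between 4.25 and 7.08 FPKM.

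No host passed the test for a different response to OTX without folic acid. The -FA change minus the +FA change was called for 0 of the 10 in U937, where limma called 2.01% of all genes (1.27% lower, 0.741% higher), and for 0 of the 10 in IMS-M2, where it called 6.94% (3.61% lower, 3.33% higher). Of the U937 calls 36.9% were higher, and 57.8% after rescaling within tables. At an unadjusted p below 0.05 there were 3 hosts in each line, near the share of all genes, 33.9% in U937 and 30.1% in IMS-M2. GAS5 had the largest differences of the 10, with opposite signs in the lines. In U937 the log2 difference between responses was -1.20 ± 0.54 (SE) for GAS5 (limma adjusted p = 0.145), -0.72 ± 0.23 for SNHG15 (0.0692) and 0.61 ± 0.26 for SNHG5 (0.131). In IMS-M2 it was 0.89 ± 0.32 for GAS5 (limma adjusted p = 0.0956), 0.60 ± 0.21 for SNHG15 (0.0835) and 0.43 ± 0.19 for SNHG1 (0.154). For SNHG7 and SNHG16 the differences between responses were -0.23 ± 0.14 and -0.32 ± 0.16 in U937, and -0.03 ± 0.15 and 0.07 ± 0.13 in IMS-M2. The count rested on single libraries: it was 2 in U937 without -FA DMSO column 1 (GAS5 and SNHG15) and 1 without +FA DMSO replicate 1 (SNHG15), where limma called 2704 and 2184 genes in all, against 225 with every library. In IMS-M2 it was 3 without +FA DMSO replicate 1 (GAS5, SNHG1 and SNHG15) and 1 without -FA OTX replicate 2 (SNHG15), where limma called 3429 and 1252 genes in all, against 779.

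Levels without and with folic acid come from separate tables and are given without a test. Under OTX, 5 of the 10 hosts were lower in U937 -FA than in U937 +FA without overlap, beside 21.0% of all genes. They were GAS5, SNHG1, SNHG6, SNHG8 and SNHG15. None was higher without overlap, a direction for which the share of all genes was not computed. GAS5 averaged 95.9 ± 8.65 FPKM in U937 -FA OTX and 169 ± 53.5 FPKM in U937 +FA OTX. In IMS-M2 under OTX, 3 hosts were higher at -FA without overlap, GAS5, SNHG15 and SNHG16, beside 13.8% of all genes. None was lower without overlap, and the share of all genes in that direction was not computed either. GAS5 averaged 380 ± 24.6 FPKM in IMS-M2 -FA OTX and 274 ± 15.1 FPKM in IMS-M2 +FA OTX (SD, n = 3 each). Under DMSO, SNHG5 alone was apart in U937 (10.9% of all genes were lower at -FA without overlap), at 292 ± 77.2 FPKM without and 411 ± 34.0 FPKM with folic acid. SNHG5 and SNHG7 were apart in IMS-M2 under DMSO and higher at -FA, beside 18.0% of all genes, SNHG5 at 69.4 ± 7.42 FPKM without and 51.7 ± 9.15 FPKM with folic acid.

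The lines differed in their response to OTX for 6 of the 10 hosts without folic acid and for 3 with it, in each case with the U937 change the lower. In the fit over all 24 libraries, limma called 43.0% of 12197 genes at -FA (21.5% lower in U937) and 50.6% at +FA (22.9% lower). The hosts called at -FA were above both shares. Those called at +FA were below the share of all genes called and near the share called lower. At -FA the difference between lines in this change (U937 over IMS-M2, log2) was -1.81 ± 0.48 (SE) for GAS5 (limma adjusted p = 0.00503), -1.21 ± 0.24 for SNHG1 (0.000495), -1.13 ± 0.23 for SNHG15 (0.000494), -0.89 ± 0.15 for SNHG7 (7.69e-05), -0.65 ± 0.14 for SNHG16 (0.00113) and -0.60 ± 0.13 for SNHG6 (0.00111). At +FA it was -1.11 ± 0.24 for SNHG5 (limma adjusted p = 0.0008), -0.69 ± 0.15 for SNHG7 (0.000751) and -0.39 ± 0.12 for SNHG12 (0.00825). SNHG7 was thus the only host called in both. SNHG8 had a difference of -0.01 ± 0.20 at -FA and 0.38 ± 0.20 at +FA, neither of them called (limma adjusted p = 0.971 and 0.115). None of these 9 calls ended in any alternative run. SNHG6 at +FA passed without IMS-M2 DMSO replicate 2 (-0.31, limma adjusted p = 0.0433), and SNHG12 at -FA, at -0.27 ± 0.12 (limma adjusted p = 0.0666), passed without any 1 of 4 libraries (-0.37 to -0.31).

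Core proteins of the particles that snoRNAs form were mostly lower under OTX too, as were a majority of assembly factors in U937. All 8 snoRNP core protein genes were tested, among them GAR1, NHP2 and DKC1 of the H/ACA particle and NOP58 of the C/D particle. In U937, 7 were called lower at -FA and 8 at +FA, and in IMS-M2 6 at -FA and 5 at +FA, with none higher. Their median log2 difference was -1.06, -0.88, -0.42 and -0.49 in the same order. The shares of all tested genes called lower were 31.7%, 27.0%, 30.0% and 33.4% in that order. NHP2 had 74.7 FPKM under OTX against 208 FPKM under DMSO in U937 -FA (log2 difference -1.46, limma adjusted p = 3.20e-07). GAR1 had 15.4 FPKM under OTX against 34.8 FPKM under DMSO in IMS-M2 -FA (log2 difference -1.13, limma adjusted p = 1.85e-07). Of 11 snoRNP assembly factors, 7 were lower and 1 higher in U937 -FA, 6 and 0 in U937 +FA, 5 and 1 in IMS-M2 -FA, and 3 and 2 in IMS-M2 +FA, the last below the 33.4% of all genes called lower there. NOLC1, a nucleolar chaperone of snoRNPs, had 36.0 FPKM under OTX against 95.1 FPKM under DMSO in U937 -FA (log2 difference -1.38, limma adjusted p = 5.70e-08). RPAP3, part of a co-chaperone complex for snoRNP assembly, was higher in all conditions but U937 +FA. In U937 -FA it had 15.3 FPKM under OTX against 8.74 FPKM under DMSO (log2 difference 0.75, limma adjusted p = 0.000882).

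The other noncoding snoRNA hosts were mostly lower, while the protein-coding hosts were split in IMS-M2. Of 16 further noncoding hosts listed, 10 were in the tables and 9 passed the filter on low values. The tested ones were lower in 7 cases in U937 -FA, 9 in U937 +FA, 5 in IMS-M2 -FA and 6 in IMS-M2 +FA, with medians of -1.06, -0.89, -0.39 and -0.54. Each was a larger share than that of all genes called lower, 31.7%, 27.0%, 30.0% and 33.4% in that order. DANCR measured 16.0 FPKM under OTX against 74.2 FPKM under DMSO in U937 -FA (log2 difference -2.13, limma adjusted p = 9.74e-08), beside -1.73 for GAS5, the lowest of the 10 genes. SNHG3 was the exception in IMS-M2, where it was higher under OTX (0.36 at -FA, limma adjusted p = 0.00867, and 0.29 at +FA, limma adjusted p = 0.0252). The difference between lines in the SNHG3 change was -1.54 at -FA (limma adjusted p = 8.49e-08). Among 48 protein-coding hosts, 34 were lower and 3 higher in U937 -FA, 24 and 2 in U937 +FA, 11 and 8 in IMS-M2 -FA, and 19 and 8 in IMS-M2 +FA. The 11 lower in IMS-M2 -FA are a smaller share than the 30.0% of all genes called lower there. EIF4G2 was higher in all 4, with 266 FPKM under OTX against 177 FPKM under DMSO in U937 -FA (log2 difference 0.60, limma adjusted p = 0.000601).

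Neither translation-linked list moved as a block in IMS-M2. Of 18 tested TOP mRNAs other than those of ribosomal proteins, 15 were lower and 1 higher in U937 -FA, 9 and 1 in U937 +FA, 4 and 4 in IMS-M2 -FA, and 4 and 3 in IMS-M2 +FA. The lower calls were above the share of all genes in U937 (31.7% at -FA, 27.0% at +FA). They were below it in IMS-M2 (30.0% at -FA, 33.4% at +FA). The exception in U937 was TPT1, with 4052 FPKM under OTX against 2823 FPKM under DMSO at -FA (log2 difference 0.53, limma adjusted p = 0.00034), and it was higher in IMS-M2 too. The 16 nonsense-mediated decay factors were split, with 4 lower and 2 higher in U937 -FA, 2 lower and 4 higher in U937 +FA, and 3 lower and 4 higher in both IMS-M2 conditions, and their median lay between -0.11 and 0.06. In every condition both directions were below the shares of all genes, 27.0 to 33.4% lower and 27.5 to 29.8% higher. SMG1, the kinase of nonsense-mediated decay, was higher in U937 -FA by 0.23 (limma adjusted p = 0.0212), with 9.06 FPKM under OTX against 7.54 FPKM under DMSO. It was higher by 0.35 in U937 +FA (limma adjusted p = 0.00241) and by 0.81 in IMS-M2 -FA (limma adjusted p = 1.67e-05).

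**Figure D4:**
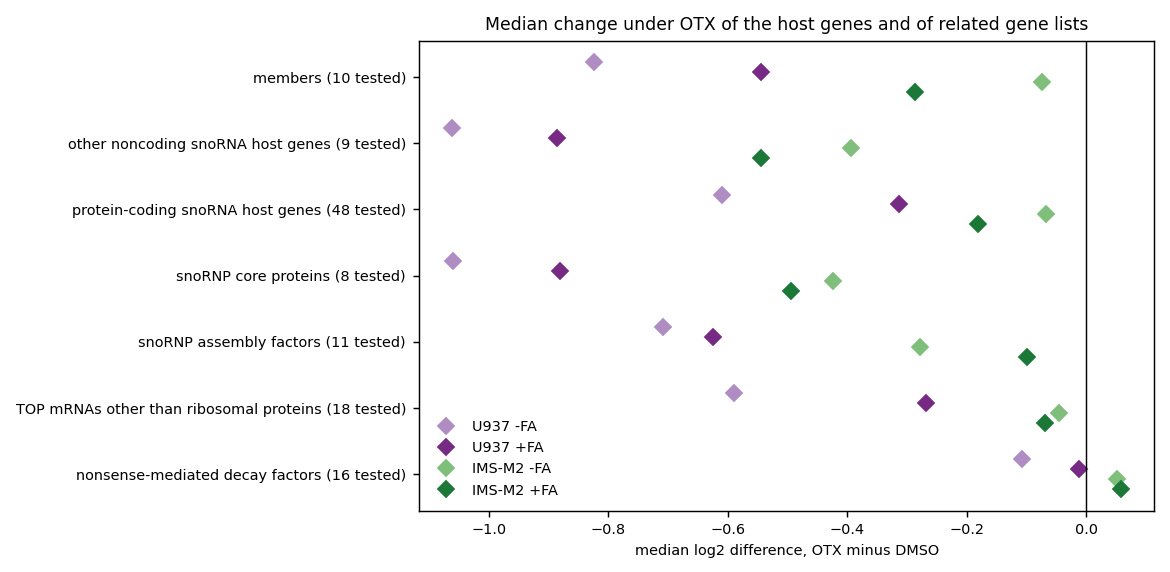
Median log2 difference, OTX minus DMSO, of the 10 host genes (named members on the axis) and of 6 related gene lists, in U937 -FA, U937 +FA, IMS-M2 -FA and IMS-M2 +FA; the number of genes tested is given beside each list. The medians of hosts and of snoRNP core proteins lie below 0 in all 4 conditions and lowest in U937 -FA (-0.82 and -1.06), and those of the nonsense-mediated decay factors lie near 0.

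Likeness between genes was described by Pearson's r of log2(FPKM + 1) over the 24 libraries after subtraction of the mean of each table, a measure that mixes the response to OTX with what libraries share. Among the hosts the closest pairs were SNHG6 and SNHG16 (r = 0.926), GAS5 and SNHG1 (r = 0.924) and SNHG15 and SNHG16 (r = 0.915). SNHG5, SNHG12 and ZFAS1 had no host as near: the highest r of SNHG12 and SNHG5 was 0.590, with each other, and that of ZFAS1 was 0.593, with GAS5. The lowest r was -0.502, between SNHG12 and SNHG8. Of up to 10219 genes tested in both lines, the nearest was ZNF598 to SNHG7 (r = 0.990), FKBP4 to SNHG16 (r = 0.990), EIF3K to SNHG15 (r = 0.986) and PRPS1 to GAS5 (r = 0.980). It was IFITM2 to SNHG8 (r = 0.967), CCNJ to SNHG1 (r = 0.956), RPL11 to SNHG6 (r = 0.954) and ZNF22 to SNHG5 (r = 0.947). ZFAS1 and SNHG12 had no neighbour as close, with TXNL4A (r = 0.736) and CHKA (r = 0.844).

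The tables also list snoRNAs inside the host loci. There were 35 such entries, 28 of box C/D and 7 of box H/ACA snoRNAs. All but 1 of the C/D entries were listed at 0 in every library, including all 10 of GAS5, while SNORD22 of SNHG1 was above 0 in 14 of the 24 libraries. Each of the 7 H/ACA entries was above 0 in at least 1 library, SNORA61 of SNHG12 in 17 and SNORA24 of SNHG8 in 11. The values jumped between libraries of a group, with SNORD22 reaching 163 FPKM in U937 -FA OTX column 1. In the GENCODE annotation (GRCh38), 6 of the 8 entries above 0 had a matched length, of 126 to 135 bases, and 14 of the 27 entries at 0 had one, of 69 to 91 bases. A short snoRNA at 0 and the longer SNORD22 from SNHG1 (chromosome 11) and an H/ACA example from SNHG8 (chromosome 4) show the difference, with the C, D and ACA boxes that were found in capitals.
SNORD25: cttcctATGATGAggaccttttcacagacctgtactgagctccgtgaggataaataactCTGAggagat
SNORD22: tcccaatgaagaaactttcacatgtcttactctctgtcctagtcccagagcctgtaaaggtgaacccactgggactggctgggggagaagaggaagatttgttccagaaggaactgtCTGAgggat
SNORA24: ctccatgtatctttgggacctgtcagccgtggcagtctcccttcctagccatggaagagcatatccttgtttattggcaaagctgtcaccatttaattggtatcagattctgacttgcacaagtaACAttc
Selection of polyadenylated RNA does not keep mature snoRNAs, which have no poly(A) tail, and an entry at 0 in a table without counts may be a failed estimate. These entries were therefore not compared between groups, and nothing is read from them about snoRNA levels.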

How the data were processed

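The deposited tables hold FPKM values, 1 table per line and folic acid condition. No header states a unit; FPKM was inferred from the values and the Cuffdiff layout. Cuffdiff 2.2.1, TopHat2 2.1.1, bcl2fastq 2.17.1.14 and the build hg19 stand in the submitters' processing notes, without role or order. Per the labels, RNA was extracted with a Qiagen RNAEasy plus mini kit and libraries were made with a TruSeq Stranded mRNA kit. Depth is unknown, so no counting intervals were computed. Columns of the U937 -FA table are numbered 0 to 2 and labels 1 to 3, so these libraries were assigned to groups only and are called columns.

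The values were transformed to log2(FPKM + 1), which understates changes of low genes, and tested with limma 3.58.1 in R 4.3.3. Group-means models were fitted to the 12 libraries of a line (24 for the line difference) with an intensity trend. A gene was tested if some group averaged 1 FPKM or more, with Benjamini-Hochberg adjustment over all of them. The fits were checked on simulated data with independent noise in each gene. That check does not cover deviations that genes of a library share. All 10 hosts are named in every contrast. From each related list, naming was open to the 2 genes of lowest p in each direction, and the nearest gene by likeness is named. Members and lists were chosen with earlier results of these data known. The labels do not say that libraries of a group were separate cultures, so p-values measure only the spread between these samples, which may be technical. Alternatives were a pseudocount of 0.1, no filter, rescaling within tables, single tables, a replicate block and leaving out each library.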

Additional observations from a re-analysis of the deposited data

Results flagged for a closer look

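The response to OTX differed between the lines by a direct test (limma, U937 change minus IMS-M2 change, adjusted p below 0.05) for SNHG5 (-1.11), SNHG7 (-0.69) and SNHG12 (-0.39) with folic acid. Without folic acid it differed for GAS5 (-1.81), SNHG1 (-1.21), SNHG6 (-0.60), SNHG7 (-0.89), SNHG15 (-1.13) and SNHG16 (-0.65). All are log2 differences. Beside these, 50.6% of all genes differed between lines with folic acid and 43.0% without it. The hosts that differed with folic acid were a smaller share than that of all genes, and those without it a larger one. The lines come from separate tables, and the change under OTX was taken inside each. Rescaling within tables ended none of these 9 calls, but it cannot address a scaling that differs between tables. The cause of the differences was not tested.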

How the results depend on the processing

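Of 1070 values of single hosts under an alternative, 998 kept their direction and their side of the threshold, 20 lost the threshold, 22 gained it and 30 changed sign, none of them a call in the fit as reported. Hosts called in IMS-M2 +FA numbered 5 when the 6 libraries were fitted alone, against 8. Replicate numbers were not shown to pair libraries: same-numbered OTX and DMSO libraries had deviations correlated at 0.052, 0.278 and 0.073 in IMS-M2 +FA, 0.076, 0.213 and 0.191 in IMS-M2 -FA, and -0.336, 0.130 and -0.239 in U937 +FA. Every library correlated best with its own number in IMS-M2 -FA alone, a hint from the data and not the design. With a replicate block, 5 hosts instead of 3 were called in IMS-M2 -FA, and for the folic acid difference 2 hosts (GAS5, limma adjusted p = 0.0453, and SNHG15, 0.0277) and 1920 genes instead of 0 and 779 in IMS-M2, and 0 genes instead of 225 in U937. Genes called for the folic acid difference numbered 445 in IMS-M2 and 128 in U937 with no filter, and 31 in U937 with a pseudocount of 0.1. Leaving out single libraries gave 82 to 3429 genes and 0 to 3 hosts in IMS-M2, and 1 to 2704 genes and 0 to 2 hosts in U937. The causes were not tested.

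Most values with a changed sign lay near 0. The furthest from it were -0.29 for ZFAS1 (folic acid difference, U937) and 0.23 for SNHG8 (line difference, -FA). Rescaling gave 0.0002 for ZFAS1 in IMS-M2 +FA and 0.017 for the line difference of SNHG8 at -FA. Leaving out libraries gave, for OTX minus DMSO, -0.19 to 0.18 for ZFAS1 and -0.32 to 0.017 for SNHG1 in IMS-M2 +FA, -0.078 to 0.054 for SNHG5 in IMS-M2 -FA, and -0.37 to 0.018 for SNHG5, -0.13 to 0.002 for SNHG12 and -0.48 to 0.19 for ZFAS1 in U937 -FA. For the folic acid difference it gave -0.13 to 0.0597 for SNHG7, -0.14 to 0.033 for SNHG12 and -0.024 to 0.35 for ZFAS1 in IMS-M2, and -0.38 to 0.0092 for SNHG8, -0.016 to 0.11 for SNHG12 and -0.29 to 0.38 for ZFAS1 in U937. For the line difference it gave -0.37 to 0.0011 for ZFAS1 at +FA, and -0.16 to 0.23 for SNHG8, -0.34 to 0.049 for SNHG5 and -0.63 to 0.036 for ZFAS1 at -FA. With 3 libraries per group and no counts, precision could not be set against depth.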
